A study of Homo sapiens with 4 samples.

Results

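Integrins are the receptors by which cells hold on to the extracellular matrix, and laminins are trimeric proteins of the basement membrane that several of those receptors bind. The genes described here are those named on the array as a laminin chain (LAMA, LAMB or LAMC with a number) or an integrin chain (ITGA or ITGB with a number, ITGA2B included, and ITGAV, ITGAL, ITGAM, ITGAX and ITGAE). They were read by 68 of the 47229 probes of the array and make up 37 genes, 12 of them laminin chains, 17 integrin alpha chains and 8 integrin beta chains. Another 8 probes, whose gene names go on past the chain number, as that of the binding protein ITGB1BP1 does, were left out.

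The values come from 4 Illumina HumanHT-12 V4 arrays, 1 for each of H4 cells given GANT61, H4 cells given DMSO, ES2 cells given GANT61 and ES2 cells given DMSO. GANT61 is a small molecule that keeps the transcription factors GLI1 and GLI2 of the Hedgehog pathway off DNA, and DMSO is its solvent. Cells had GANT61 at 20 µM, and all 4 samples are labelled 48 h; an earlier time that the protocol names is not analysed here. ES2 is an established ovarian cancer line. H4 is elsewhere known as a neuroglioma line, but its labels here carry the ovarian origin of ES2. The title of the series asks whether blocking Hedgehog signalling slows cancer cells by promoting autophagy, and adhesion genes are not named in it. There are no replicates, so each ratio of GANT61 over DMSO within a line compares 1 array with 1 array and has no p-value. In these bulk cultures, fewer cells expressing a gene and less RNA per cell cannot be told apart.

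An integrin is a pair of 1 alpha and 1 beta chain, and the pair decides the ligand. ITGB1 pairs with many alpha chains. With it, ITGA3, ITGA6 and ITGA7 bind laminins, ITGA1, ITGA2, ITGA10 and ITGA11 bind collagens, and ITGA5 binds fibronectin. ITGAV pairs with ITGB3, ITGB5, ITGB6 or ITGB8 and reads the short RGD motif of ligands such as vitronectin and latent TGF-beta, while ITGB2 and ITGB7 belong to leukocyte integrins. A laminin holds 1 alpha, 1 beta and 1 gamma chain: LAMA3 and LAMB3 belong to the laminin that anchors epithelia, and LAMA4 or LAMA5 with LAMB1 or LAMB2 and LAMC1 form laminins found in many basement membranes.

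All values below are log2 intensities after background correction and quantile normalization of the deposited values, which the authors had normalized within each line. A gene is represented by its brightest probe, and a probe counts as detected on an array at a detection p-value under 0.01. The medians of the 4 arrays were 5.75 on this scale. The files do not say which of a line's arrays a detection p-value belongs to, so detection is given as the number of a line's arrays, from 0 to 2. Among genes with several detected probes, the ratio differed between probes with an SD of 0.222 on the log2 scale in H4 (1993 genes) and 0.143 in ES2 (2545 genes). Of 15 ovarian and epithelial markers, KRT18 alone was detected on both H4 arrays and KRT7, KRT8 and KRT18 on both ES2 arrays, while PAX8, WT1, EPCAM and CDH1 were detected on none. Of 15 glial and neural markers, OLIG2, SLC1A3, NCAM1, TUBB3 and MAP2 were detected on both H4 arrays and SLC1A3, MBP and TUBB3 on both ES2 arrays, while GFAP and S100B were detected on none.

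RefSeq promoters were at hand for 26 of the 37 genes, and those of 4 genes that carry the results below are shown: ITGA2 and ITGB5, which were more than 2-fold higher with GANT61 in H4, ITGB8, which was more than 2-fold lower there, and LAMA5, which was lower in both lines. Each is the 250 bases before the gene's start on its own strand, 5′ to 3′, build GRCh38.p14, at chr5:52989102-52989351 (plus strand) for ITGA2, chr3:124901419-124901668 (minus strand) for ITGB5, chr7:20330650-20330899 (plus strand) for ITGB8 and chr20:62367313-62367562 (minus strand) for LAMA5. Capitals mark the GC box, the letters GGGCGG on either strand.
ITGA2: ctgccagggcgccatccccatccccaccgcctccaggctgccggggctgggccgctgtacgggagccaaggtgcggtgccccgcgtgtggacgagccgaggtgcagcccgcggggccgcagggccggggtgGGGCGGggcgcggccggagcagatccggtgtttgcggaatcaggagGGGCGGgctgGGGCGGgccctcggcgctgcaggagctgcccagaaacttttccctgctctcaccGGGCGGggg
ITGB5: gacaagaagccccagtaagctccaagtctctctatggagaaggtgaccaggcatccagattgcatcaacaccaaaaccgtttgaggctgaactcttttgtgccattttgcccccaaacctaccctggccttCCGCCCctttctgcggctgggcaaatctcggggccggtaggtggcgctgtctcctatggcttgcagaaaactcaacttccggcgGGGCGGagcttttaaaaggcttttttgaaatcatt
ITGB8: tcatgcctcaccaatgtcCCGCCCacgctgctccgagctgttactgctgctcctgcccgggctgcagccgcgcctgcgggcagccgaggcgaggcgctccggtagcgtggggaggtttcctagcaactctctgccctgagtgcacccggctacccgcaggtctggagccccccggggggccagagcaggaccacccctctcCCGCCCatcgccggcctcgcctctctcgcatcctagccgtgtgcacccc
LAMA5: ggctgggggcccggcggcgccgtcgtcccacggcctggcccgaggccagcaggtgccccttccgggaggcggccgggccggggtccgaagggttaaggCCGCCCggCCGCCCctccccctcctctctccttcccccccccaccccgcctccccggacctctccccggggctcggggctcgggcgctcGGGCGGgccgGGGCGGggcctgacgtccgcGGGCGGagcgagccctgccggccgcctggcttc

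The ITGA2 promoter held 4 GC boxes, that of ITGB5 held 2, that of ITGB8 held 2 and that of LAMA5 held 5. Over all 35116 promoters of the table, 42.6% held a GC box, as did 13 of the 26 integrin and laminin promoters. The GLI motif GACCACCCA, the AP-1 motif TGANTCA and the TEAD motif GGAATG, each searched on both strands, had no match in these 4 windows, so no motif overlapped another there. The GLI letters were found in 0.199% of all promoters and in 0 of the 26, the AP-1 letters in 6.57% and 1 of the 26, and the TEAD letters in 11.9% and 4 of the 26. GC content was 76.4% for ITGA2, 52.8% for ITGB5, 71.2% for ITGB8 and 82.8% for LAMA5.

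Of the 37 genes, 26 were detected by at least 1 probe on at least 1 array, 21 in H4 and 19 in ES2, with 14 in both lines. Detected in H4 but on no ES2 array were ITGA1, ITGA7, ITGA8, ITGB7, ITGB8, LAMA1 and LAMC3, of which ITGA8, ITGB7 and LAMA1 were seen on 1 H4 array only. Another 5 were detected in ES2 but on no H4 array, among them ITGA6, ITGA10, LAMB2 and LAMB3. No array detected ITGA2B, ITGA9, ITGA11, ITGAL, ITGAM, ITGAX, ITGB3, ITGB4, ITGB6, LAMA2 or LAMB4. Counted by the brightest probe, 13 of the 37 genes were detected in both lines and 25 in either. The same count over all genes gave 10229 in both lines and 13530 in either, with 11546 in H4 and 12213 in ES2. Both arrays of the line detected 22 of the 68 probes in H4 (32.4%, against 25.6% of all probes) and 27 in ES2 (39.7%, against 31.0%). By the brightest probe, 20 genes were measured in H4, 16 of them on both arrays, and 18 in ES2, all on both arrays. These are the genes whose ratios follow, so the 11 without detection and the single-array probes of LAMA1 in H4 and LAMA3 in ES2 are outside the counts.

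**Figure D1:**
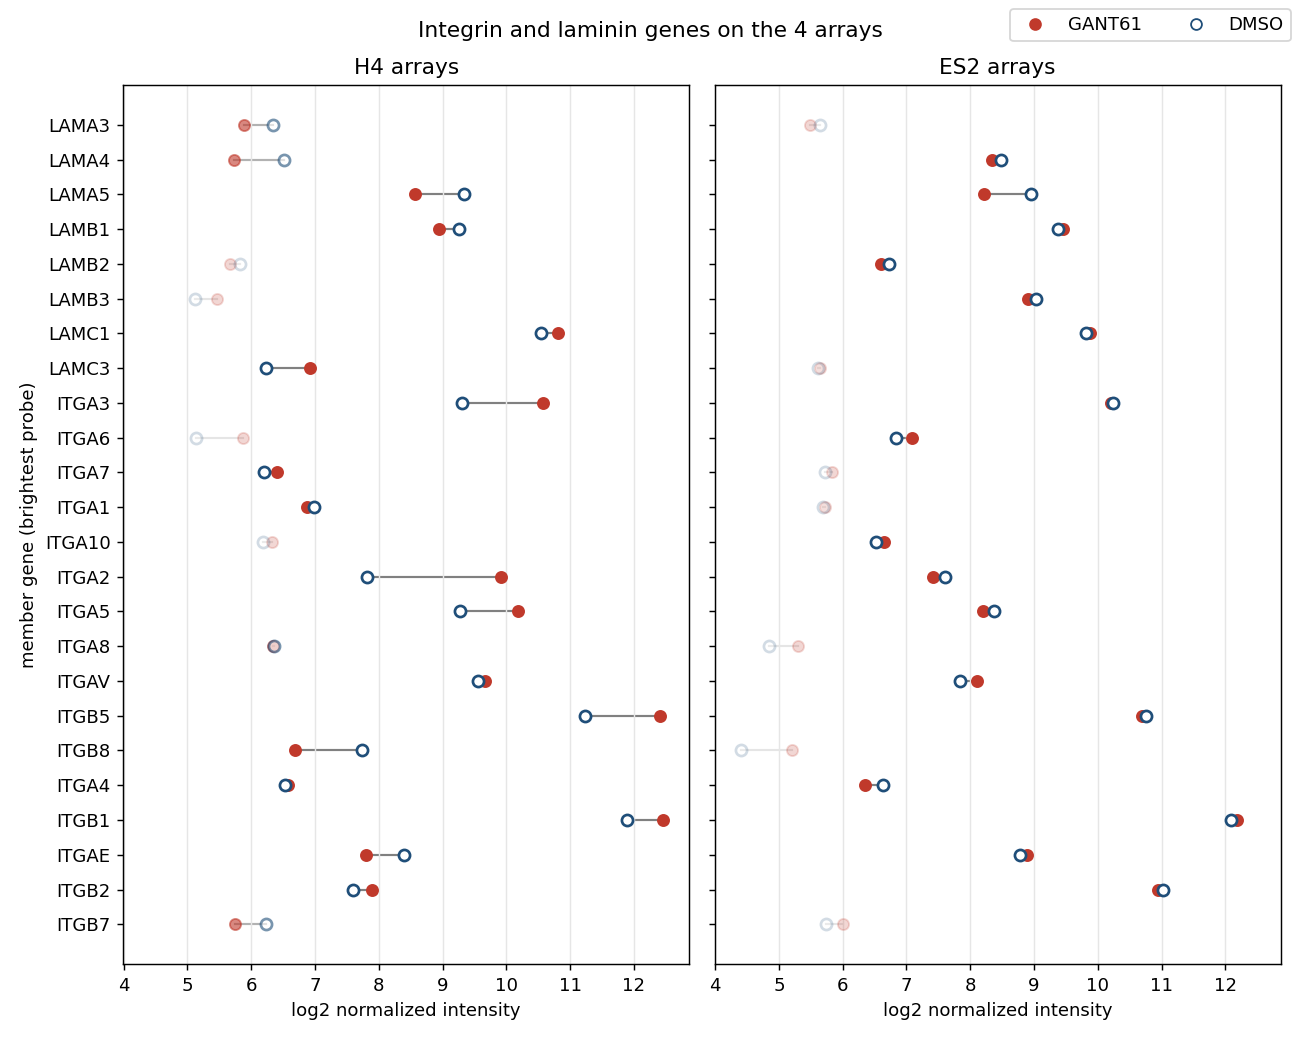
Log2 normalized intensity (horizontal axis) of 24 genes measured in at least 1 line, by brightest probe, on the H4 arrays (left) and the ES2 arrays (right), with GANT61 filled and DMSO open. Pale points belong to genes detected on 1 or no array of that line. The longest line joins ITGA2 in H4, at 9.92 with GANT61 and 7.81 with DMSO. Probes differ in brightness, so levels are read along a gene and not between genes.

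LAMA5, the alpha chain of widely expressed laminins, was the laminin gene that stood lower with GANT61 by about the same amount in both lines. In H4 its log2 level was 8.57 with GANT61 and 9.34 with DMSO, or 388.1 and 618.9 on the deposited intensity scale, a 1.70-fold lower level. In ES2 the levels were 8.21 with GANT61 and 8.96 with DMSO (352.4 and 584.6 deposited), a 1.68-fold lower level. That placed it 10th from the lowest of 12213 genes in ES2 and 825th from the lowest of 11546 in H4. LAMA5 has 1 probe on the array, so no other probe bears on it.

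LAMC1, the gamma chain of most laminins, was at 10.81 with GANT61 and 10.54 with DMSO in H4 (1.2-fold higher) and at 9.87 and 9.81 in ES2 (1.04-fold higher). LAMB1, its usual beta chain, was at 8.95 with GANT61 and 9.25 with DMSO in H4 (1.23-fold lower), but a second probe was at 7.10 and 7.04 (1.04-fold higher). In ES2 the LAMB1 probes were 1.06-fold and 1.05-fold higher. LAMC3, a gamma chain of restricted expression, was at 6.92 with GANT61 and 6.24 with DMSO in H4 (1.60-fold higher), near the lowest level of any gene detected on both arrays (6.38 on the GANT61 array and 6.19 on the DMSO array). On the authors' scale its log2 ratio was 0.35 in place of 0.68.

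LAMA4 was the laminin alpha chain that the lines carried most unequally. It was at 8.34 with GANT61 and 8.48 with DMSO in ES2 (1.10-fold lower), while a second probe was 1.17-fold higher there. In H4 it was at 5.73 with GANT61 and 6.51 with DMSO and was detected on 1 array, which bounds the ratio at 1.10-fold lower or more. The LAMA3 probe detected on 1 H4 array was at 5.89 with GANT61 and 6.34 with DMSO, and no bound could be given. Another LAMA3 probe was detected on 1 ES2 array, at 6.13 with GANT61 and 5.89 with DMSO, at least 1.01-fold higher. A LAMA1 probe that was not the gene's brightest was detected on 1 H4 array, at 6.57 with GANT61 and 5.44 with DMSO, at least 1.31-fold higher. LAMB3, a beta chain of the epithelial laminin, was measured in ES2 alone, at 8.91 with GANT61 and 9.03 with DMSO (1.08-fold lower). Its other probes were detected on no array. LAMB2 was at 6.60 with GANT61 and 6.73 with DMSO in ES2 (1.10-fold lower).

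Among integrins, ITGA2, the alpha chain of a collagen receptor, had the highest ratio. In H4 its log2 level was 9.92 with GANT61 and 7.81 with DMSO, or 893.9 and 256.3 on the deposited scale, a 4.32-fold higher level and the 72nd highest ratio of 11546 genes. In ES2 it was at 7.42 with GANT61 and 7.60 with DMSO (208.5 and 235.3 deposited), a 1.13-fold lower level. The H4 DMSO level thus lay close to both ES2 levels, and the H4 GANT61 level lay above all 3. ITGA1, the other collagen-binding chain measured in H4 and encoded close by with 1 protein-coding gene between, was at 6.87 with GANT61 and 6.98 with DMSO (1.08-fold lower). ITGA10, a collagen receptor chain known from cartilage, was measured in ES2 alone, at 6.65 with GANT61 and 6.53 with DMSO (1.09-fold higher).

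ITGA3, the alpha chain of a laminin receptor, was also higher in H4. It was at 10.57 with GANT61 and 9.31 with DMSO there (1354 and 608.3 deposited), a 2.39-fold higher level. In ES2 it was at 10.20 with GANT61 and 10.24 with DMSO (1347 and 1384 deposited), a 1.03-fold lower level. Its second probe was detected on no H4 array and on 1 ES2 array, where it was at 5.66 with GANT61 and 6.33 with DMSO, at least 1.19-fold lower. Of the other laminin-binding chains, ITGA7, known from muscle, was at 6.41 with GANT61 and 6.20 with DMSO in H4 (1.16-fold higher). ITGA6 was at 7.09 with GANT61 and 6.83 with DMSO in ES2 (1.2-fold higher), and a second probe, detected on 1 array, was at 6.13 and 6.09. Its partner ITGB4, the beta chain of hemidesmosomes, was detected on no array.

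The RGD-binding chains went both ways in H4. ITGB5, a beta chain of a vitronectin receptor, was at 12.41 with GANT61 and 11.23 with DMSO (4461 and 2040 deposited), a 2.27-fold higher level, and its 2 other detected probes were 2.32-fold and 2.50-fold higher. In ES2 the same 3 probes were 1.05-fold lower, 1.01-fold higher and 1.21-fold lower, the brightest at 10.69 with GANT61 and 10.75 with DMSO. ITGA5, the fibronectin receptor chain, was at 10.19 with GANT61 and 9.28 with DMSO in H4 (1.87-fold higher) and at 8.20 and 8.38 in ES2 (1.13-fold lower). ITGB8, which with ITGAV activates latent TGF-beta, was at 6.69 with GANT61 and 7.74 with DMSO in H4 (153.5 and 248.0 deposited), a 2.07-fold lower level, and was detected on no ES2 array. The ITGB8 log2 ratio of -1.05 was -0.69 on the authors' scale, under 2-fold. Their common partner ITGAV was at 9.67 with GANT61 and 9.55 with DMSO in H4 (1.09-fold higher) and at 8.10 and 7.84 in ES2 (1.2-fold higher). ITGA8 was detected on 1 H4 array, at 6.34 with GANT61 and 6.36 with DMSO, with no bound to give.

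ITGB1, the beta chain shared by most of these receptors, was read by 3 probes detected on both H4 arrays, and all of them were higher with GANT61. The brightest was at 12.46 with GANT61 and 11.89 with DMSO (1.48-fold higher), and the others were 1.62-fold and 1.27-fold higher. In ES2 the same probes were 1.07-fold higher, 1.01-fold lower and level with DMSO (log2 ratio 0.00). A dimmer ITGB1 probe, not detected in H4, was at 7.08 with GANT61 and 6.49 with DMSO in ES2, 1.51-fold higher. ITGA4, a receptor chain for fibronectin and VCAM1, was at 6.58 with GANT61 and 6.53 with DMSO in H4 (1.04-fold higher) and at 6.35 and 6.64 in ES2 (1.22-fold lower).

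**Figure D2:**
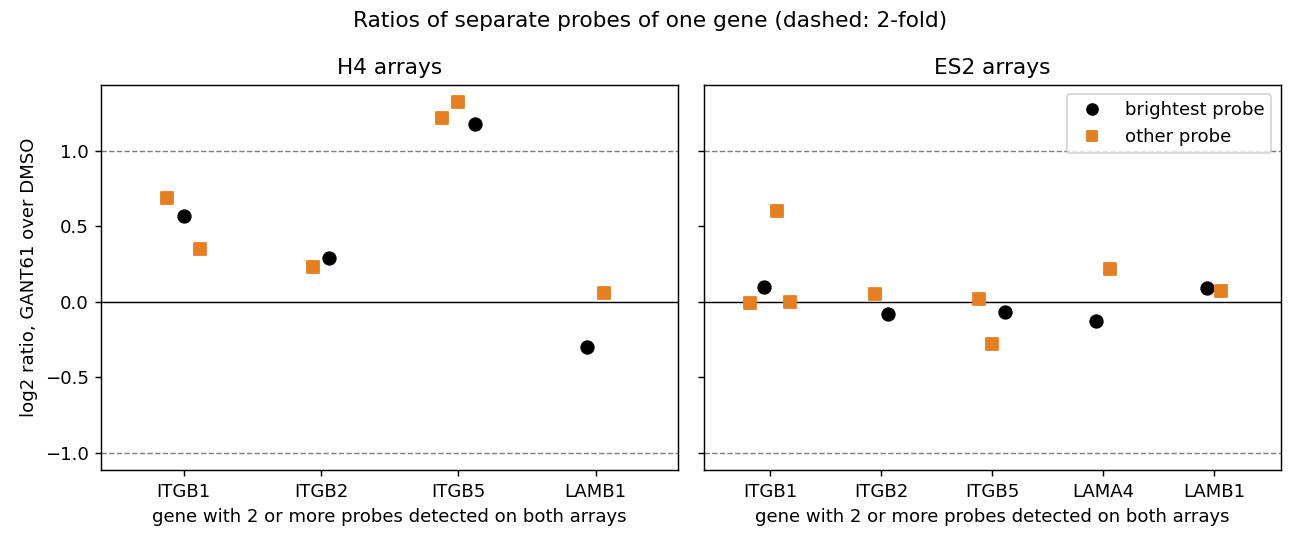
Log2 ratio of GANT61 over DMSO (vertical axis) for each probe of genes with at least 2 probes detected on both arrays of the line, H4 left and ES2 right; circles are the brightest probes and squares the others. The 3 ITGB5 probes in H4 lie between 1.18 and 1.32, while the 2 LAMB1 probes lie at -0.30 and 0.06.

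Of the leukocyte chains, ITGB2 and ITGAE were measured in both lines. ITGB2 was at 7.89 with GANT61 and 7.60 with DMSO in H4 (1.22-fold higher, and 1.17-fold by its second probe) and at 10.94 and 11.02 in ES2 (1.05-fold lower, and 1.03-fold higher by the second probe). Its alpha partners ITGAL, ITGAM and ITGAX were detected on no array. ITGAE was at 7.80 with GANT61 and 8.39 with DMSO in H4 (1.5-fold lower) and at 8.89 and 8.78 in ES2 (1.08-fold higher). Its beta partner ITGB7 was detected on 1 H4 array, at 5.74 with GANT61 and 6.23 with DMSO, with no bound to give. Of 15 genes listed as leukocyte markers, 9 were detected on no H4 array and 12 on no ES2 array, among them PTPRC, CD3E, CD14 and SPI1 in both lines. CD68 was detected on both arrays of each line, and NCAM2 and HLA-DRA on both ES2 arrays. NCAM2 is by its name a neural cell adhesion molecule, although it was on this list. In H4, CD79A, CSF1R, HLA-DRA, MS4A1 and NCAM2 were detected on 1 array, with NCAM2 at 5.80 with GANT61 and 7.11 with DMSO. The summed intensity of that list was 1239 with GANT61 and 1325 with DMSO in H4, and 1601 with GANT61 and 1605 with DMSO in ES2. These sums run over all 15 genes, so they include the background signal of the undetected ones. The part of other cell types in these levels was not tested.

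Counted over the 20 genes measured in H4, 3 were at least 2-fold higher with GANT61 (ITGA2, ITGA3 and ITGB5), or 15.0%, against 4.07% of all 11546 genes measured. ITGB8 alone was at least 2-fold lower, or 5.00%, against 3.51% of all genes, which is near that background. At 1.5-fold, 5 were higher (25.0%, against 11.3% of all genes), the further ones being ITGA5 and LAMC3, and 4 were lower (20.0%, against 12.5%), the further ones being ITGAE, LAMA4 and LAMA5. LAMA4 counts there by its measured values only: when a gene seen on a single array took its bound, 3 integrin and laminin genes and 1108 of all genes were 1.5-fold lower. ITGAE, at -0.59 on the log2 scale, was short of 1.5-fold on the authors' scale (-0.46), with median scaling (-0.55), without background correction (-0.52) and with an offset of 50 (-0.52). LAMC3, at 0.68, was short of it in the same settings (0.35, 0.52, 0.48 and 0.50). The median log2 ratio was 0.09 over the 20 genes and -0.05 over all genes. It was 0.17 over the 14 integrin chains, 9 of them above 0 (64.3%, against 45.4% of all genes). Over the 6 laminin chains it was -0.38, 2 of them above 0 (33.3%), but -0.07 when a gene seen on a single array took its bound.

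Markers of mesenchymal cells differed in the same H4 pair of arrays: of 15 markers 12 were measured, 7 were at least 2-fold lower with GANT61 (3.51% of all genes were), and the median log2 ratio was -1.07. When a gene seen on a single array took its bound, 6 were. The summed intensity of all 15, undetected ones included, was 12603 with GANT61 and 17053 with DMSO in H4. In ES2 it was 16776 with GANT61 and 17218 with DMSO, and none of 9 measured markers was 1.5-fold different there. Among the H4 markers, the matrix proteoglycan LUM was at 10.27 with GANT61 and 11.89 with DMSO and the transcription factor SNAI2 at 9.30 and 10.42, while the intermediate filament VIM was at 12.74 and 12.78. FN1, COL1A2 and ZEB1 were detected on no H4 array. The part of this shift in the integrin and laminin values was not tested.

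In ES2, none of the 18 genes was 2-fold higher or lower, against 0.0409% and 0.0328% of all 12213 genes. At 1.5-fold none was higher, against 0.344% of all genes, and LAMA5 was lower, against 0.303%. The ratios of the other 17 genes lay between -0.29 (ITGA4) and 0.26 (ITGA6 and ITGAV) on the log2 scale. The median was -0.05, against 0.00 over all genes.

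**Figure D3:**
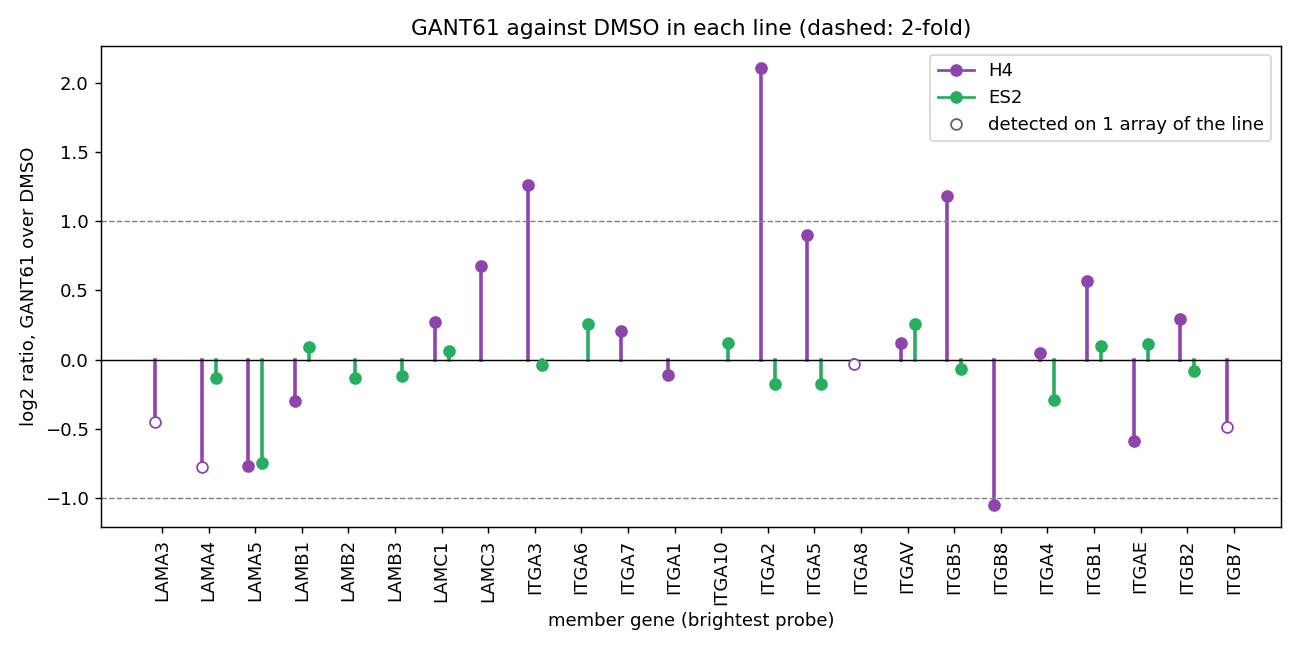
Log2 ratio of GANT61 over DMSO (vertical axis) for the same 24 genes, H4 and ES2 side by side; open points were detected on 1 array of the line and dashed lines mark 2-fold. ITGA2, ITGA3 and ITGB5 pass 2-fold upward and ITGB8 downward in H4, while LAMA5 has -0.77 in H4 and -0.75 in ES2.

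The response shared by both lines was fitted with limma, with cell line as a block and the 2 lines as the replicates of the treatment, over the 10229 genes that each line detected on 1 array or more. This leaves 1 residual degree of freedom, so each SE and p rests mainly on the spread pooled across genes. Of the 13 integrin and laminin genes in that fit, 0 passed an adjusted p under 0.05 (limma, Benjamini-Hochberg over all genes), against 0.156% of all genes, and 4 had an unadjusted p under 0.05, against 6.10%. These 4 were ITGA2 (shared log2 ratio 0.96 ± 0.34 SE, limma adjusted p = 0.404), LAMA5 (-0.76 ± 0.28 SE, adjusted p = 0.441), ITGB5 (0.56 ± 0.26 SE, adjusted p = 0.778) and ITGA3 (0.61 ± 0.29 SE, adjusted p = 0.798). ITGA2, ITGB5 and ITGA3 were higher in H4, with ES2 log2 ratios of -0.18, -0.07 and -0.04, so their shared ratio comes mostly from H4. The ES2 ratios of ITGB5 and ITGA3 were smaller than the SD between probes there (0.143) and show no direction. LAMA5 was lower in both lines. Whether the response of any of these genes differed between the lines was not tested, since no degree of freedom is left for it.

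The lines themselves differed in which chains they carried, by more than GANT61 changed them in several cases. A gene is counted here when both arrays of one line lay at least 2-fold above both arrays of the other and the higher line detected it on both. Of 25 genes, 3 were higher in H4 by their measured values (ITGA1, ITGAV and ITGB8), against 5.42% of 13530 genes, and 4 were lower, among them ITGB2, LAMA4 and LAMB3, against 6.04%. With values below the lowest detected signal of their array held at that signal, ITGAV alone of the 25 was higher. That is near the background of 4.80% of all genes. In the same count 4 of the 25 were lower, against 4.41% of all genes. ITGB2 averaged 7.74 in H4 and 10.98 in ES2, or 9.43-fold lower in H4. LAMB3 averaged 5.29 and was not detected in H4, against 8.97 in ES2, at least 6.45-fold lower in H4. LAMA4 averaged 6.12 in H4 and 8.41 in ES2. ITGAV averaged 9.61 in H4 and 7.97 in ES2, 3.12-fold higher in H4. ITGB8 was at least 2.18-fold and ITGA1 at least 1.77-fold higher in H4, both being undetected in ES2. The remaining 18 genes did not separate in this way, and ITGB1 averaged 12.18 in H4 and 12.13 in ES2. These levels have no test, and the authors scaled the lines separately, which bears on each of them. With median scaling, ITGA1 and ITGAV no longer met the rule, and 6 genes were lower in H4, with ITGA6 and ITGAE added. Without background correction ITGA1 and ITGB8 did not meet it.

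Partners of these proteins were counted in 4 lists. Of 27 focal adhesion and hemidesmosome genes measured in H4, which link integrins to actin or keratin, 20 were above 0 with GANT61 (74.1%, against 45.4% of all genes), 12 at least 1.5-fold higher (11.3% of all genes were) and none 1.5-fold lower (12.5% of all genes were), with a median log2 ratio of 0.47 against -0.05 over all genes. When a gene seen on a single array took its bound, 10 were at least 1.5-fold higher. Among the highest detected on both arrays were the adaptor BCAR1 (7.48 with GANT61 and 6.31 with DMSO, 2.26-fold higher), FHL2 (12.26 and 11.26, 1.99-fold) and the keratin linker PLEC (7.53 and 6.66, 1.84-fold). In ES2 these genes had log2 ratios of -0.23, 0.03 and -0.35. Over 31 such genes in ES2 the median was -0.06 and 12 were above 0 (38.7%, against 50.6% of all genes). The 1 gene whose measured ratio passed 1.5-fold lower there was the actin crosslinker FLNA, detected on 1 array and named after its value was seen, at 5.87 with GANT61 and 6.59 with DMSO, at least 1.42-fold lower.

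Other integrin ligands had a median of 0.59 over 11 genes in H4, 8 of them above 0 (72.7%, against 45.4% of all genes). CCN1 was at 11.77 with GANT61 and 8.38 with DMSO (10.5-fold higher), CCN2 at 12.22 and 9.20 (8.11-fold) and their relative NOV at 9.24 and 7.50 (3.36-fold), all matricellular proteins that bind integrins, and MFGE8, an RGD ligand of phagocytosis, was 1.66-fold higher. EDIL3, another RGD ligand, was at 6.94 with GANT61 and 8.02 with DMSO (2.12-fold lower). VCAM1, the ligand of ITGA4, was detected on 1 H4 array, at 5.86 with GANT61 and 9.36 with DMSO, at least 7.89-fold lower. Over 12 ligands measured in ES2 the median was 0.01, and CCN1, CCN2, NOV and MFGE8 had log2 ratios of -0.17, -0.37, 0.33 and -0.12.

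Among 16 other laminin receptors and integrin-associated membrane proteins measured in H4, 12 were above 0 (75.0%, against 45.4% of all genes) and the median was 0.24. PLAUR, the urokinase receptor that associates with integrins, was at 9.55 with GANT61 and 7.0 with DMSO (5.87-fold higher), the syndecan SDC4, a co-receptor in focal adhesions, at 9.47 and 8.21 (2.4-fold), and BSG at 10.93 and 10.34 (1.5-fold). The sarcoglycan SGCE, of the laminin-binding dystroglycan complex, was at 10.10 with GANT61 and 10.71 with DMSO (1.53-fold lower), while DAG1 itself was at 8.08 and 7.69. In ES2, PLAUR was at 10.20 with GANT61 and 10.11 with DMSO, and the list median was 0.04 over 14 genes.

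Basement membrane partners of laminin had a median of -0.13 in both lines, over 7 genes in H4 and 9 in ES2. When a gene seen on a single array took its bound, the H4 median was 0.00. In H4, 3 of the 7 were at least 1.5-fold higher (42.9%, against 11.3% of all genes) and none 1.5-fold lower (12.5% of all genes were). In ES2 none was 1.5-fold higher or lower (0.344% and 0.303% of all genes were). AGRN, a proteoglycan that binds laminin, was at 9.10 with GANT61 and 8.10 with DMSO in H4, a log2 ratio of 1.00 that fell just short of 2-fold, and at 7.42 and 7.82 in ES2 (-0.40). COL18A1, a collagen of basement membranes, was 1.70-fold higher in H4 and had a log2 ratio of -0.40 in ES2. NTN4, a netrin that binds laminin, was 1.68-fold higher in H4, with -0.06 in ES2. The collagen IV chain COL4A1 was at 9.22 with GANT61 and 9.36 with DMSO in H4.

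**Figure D4:**
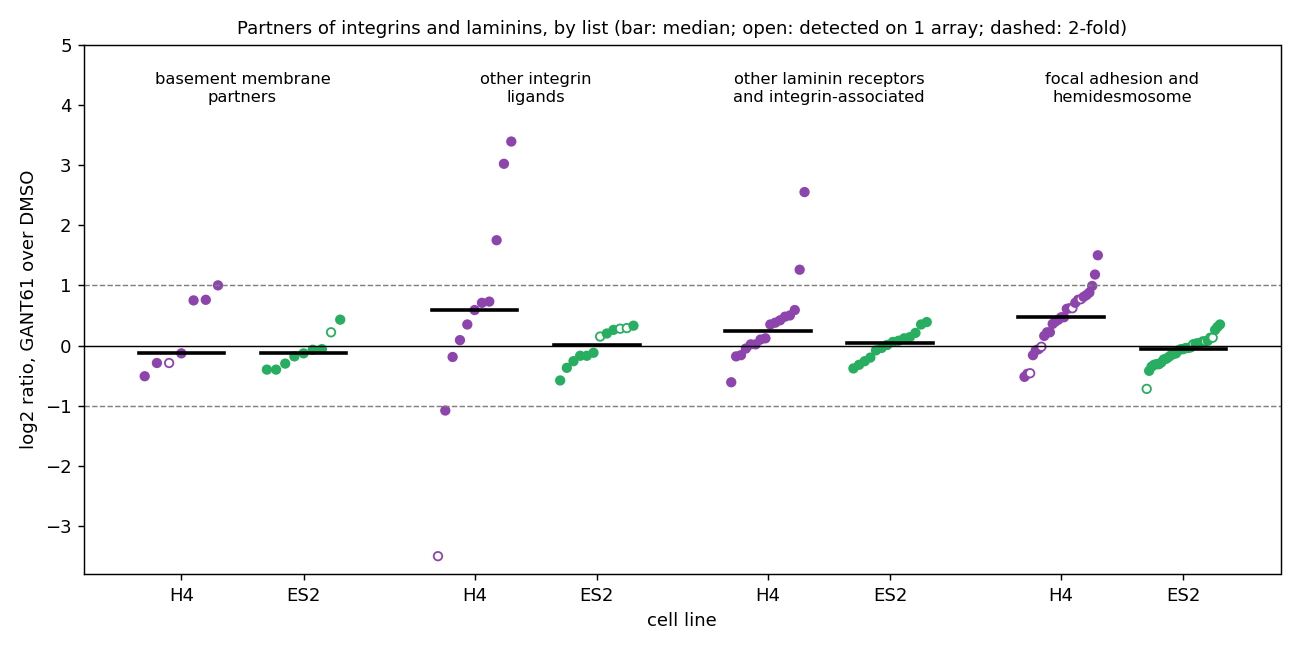
Log2 ratio of GANT61 over DMSO (vertical axis) for each measured gene of the 4 partner lists, H4 left and ES2 right in each pair; bars are list medians, open points were detected on 1 array and dashed lines mark 2-fold. The H4 median of the focal adhesion and hemidesmosome list lies at 0.47 and that of ES2 at -0.06, and the H4 points reach 3.39 (CCN1) and -3.50 (VCAM1).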

How the data were processed

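Total RNA of 4 cultures was amplified, labelled and read on Illumina HumanHT-12 V4 BeadChips, per the labels' protocols. The authors' deposited table gives 1 linear intensity per probe and array, and the array software is not given in the sources used here. Sorted intensity values differed by a median of 0.00457% between the ES2 arrays and 0.0103% between the H4 arrays, and by 35.0% between H4 and ES2 given DMSO, so the deposited values carry a quantile normalization within each line. The lowest values were 35.7 in ES2 and 52.5 in H4. Another deposited table gives raw signals with detection p-values, per the file headers. Its 4 signal columns name no treatment and were not used; its p-values served as the number of a line's arrays that detected a probe (p-value under 0.01, with 0.05 as an alternative).

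In R 4.3.3 with limma 3.58.1, background was removed by normexp (saddle method, offset 16), the 4 arrays were then brought to 1 distribution by quantile normalization, and log2 was taken. The offset shrinks the ratio of a dim probe, and a change common to all genes is lost. Probes were named from the file's gene column, brought to current symbols through RefSeq GRCh38.p14, which gave 30562 genes. Where only 1 array detected a gene, its ratio has a bound: the brighter array was taken as the detecting one, and the dimmer was held at no less than the lowest signal of genes detected on both arrays. The shared fit (lmFit and trended eBayes, with the line as a block) used Benjamini-Hochberg adjustment over all genes. It was also run on simulated data with the same change in both lines, which does not cover a response that differs between the lines. Nothing in the labels says how cultures relate, and the lines are the only replicates. With 1 residual degree of freedom, the p and SE of this fit rest mainly on the spread pooled across genes. They do not measure a single gene's own spread between the lines. Alternatives were other background corrections, scalings, detection rules and probe summaries.

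Detected laminin and integrin genes were named, and some values are counted but not reported here by name. Of the partner lists, the 4 largest per direction among genes at least 1.5-fold different and detected on both arrays were named; FLNA, VCAM1, DAG1, COL4A1 and the marker genes given with levels were named after their values were seen. The members and lists were chosen with earlier results of these data known.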

Additional observations from a re-analysis of the deposited data

Results flagged for a closer look

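The measured ratios of ITGA2 and ITGA5 had opposite signs in the lines. ITGA2 had a log2 ratio of GANT61 over DMSO of 2.11 in H4 and -0.18 in ES2. ITGA5 had 0.90 in H4 and -0.18 in ES2. With 1 array per line and treatment, the difference between the lines was not tested. Each gene has 1 probe, and the ES2 values are small and have no replicate, so they do not show a direction in ES2.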

How the results depend on the processing

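With 1 array per line and treatment, the only pairing was that of the GANT61 and DMSO arrays of each line. The ratios and the shared fit both use it. Leaving out an array leaves no ratio in that line, and leaving out a line leaves the shared fit no residual degree of freedom. The H4 count of 3 genes at least 2-fold higher was 3 or 4 under the alternatives tried, except at a 1.5-fold threshold, where it was 5. The count of 1 gene at least 2-fold lower (ITGB8) was 0 on the authors' scale, under median scaling, at a normexp offset of 50 and when background was left in, and 4 at 1.5-fold. In ES2, 0 genes were 2-fold lower and 1 was at 1.5-fold. The median log2 ratio lay between 0.06 and 0.239 in H4 and between -0.056 and 0.044 in ES2; it was above 0 in ES2 with the mean of detected probes. No integrin or laminin gene passed the shared fit (limma) under any alternative, with 2 to 4 at an unadjusted p under 0.05 and a lowest adjusted p between 0.101 and 0.999, while the genes passing in all were 16, 12 at a detection p under 0.05, 98 with the mean of detected probes and 0 under the other 6. Single-gene values under alternatives moved by less than the spread between probes in 267 cases and by more in 5, and no gene past 2-fold changed sign. The 5 were ITGA2 (1.80), ITGB8 (-0.69) and LAMC3 (0.35) in H4 on the authors' scale, and ITGA3 (-0.35) and LAMA4 (0.04) in ES2 with the mean of detected probes. Between the lines, added after seeing the data, the 3 genes higher in H4 were 1 with median scaling, 1 without background correction and 1 with low values held at the detection floor, and the 4 genes lower in H4 were 6 with median scaling. The cause of these shifts was not tested. Dim probes near the detection limit bound what the arrays can show for LAMC3, ITGA7, ITGA8, ITGB7 and LAMA3.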

Other observations

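Some members lie next to each other in the genome by the RefSeq gene order. LAMB1 and LAMB4 are neighbours with no protein-coding gene between them; LAMB1 was detected on all 4 arrays and LAMB4 on none. ITGA1 and ITGA2 are separated by 1 protein-coding gene, with H4 log2 ratios of -0.11 and 2.11. ITGAM and ITGAX are neighbours, and neither was detected on any array.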
